A study of Mus musculus with 14 samples.

Results

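The genes described here are 7 mouse genes chosen by symbol: 2 synuclein genes, Sncb and Sncg, and 5 genes whose human counterparts are linked to familial parkinsonism, Uchl1, Park7, Pink1, Vps35 and Lrrk2. They are 7 of the 55421 mouse genes in the deposited count table, and all 7 had enough counts to be tested. RNA was sequenced from the brainstem of 7 mice, with 2 libraries from each animal: total homogenate (pre-IP) and an immunoprecipitate (IP). All animals carried TH-Cre and Slc6a2-eGFP/Rpl10a on a C57Bl/6 background, so the controls carried both transgenes too. Rpl10a is a protein of the large ribosomal subunit, and the eGFP-tagged copy is driven by regulatory sequence of Slc6a2, the noradrenaline transporter gene, so the IP is meant to collect ribosome-bound RNA of noradrenergic neurons. At an age of 2 to 3 months the locus coeruleus, the main noradrenergic nucleus of the brainstem, was infused with P364S mutant human tau in 4 animals, named B, C, L and M. In the other 3, named H, I and K, the infusion carried the fluorescent protein EYFP. This gave 4 tau IP, 3 EYFP IP, 4 tau pre-IP and 3 EYFP pre-IP libraries. The time from infusion to collection is not given in the sources used here.

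Synucleins are small, soluble proteins of nerve terminals with a conserved N-terminal repeat region, and Sncb and Sncg encode the beta and gamma forms. The other members act in different parts of neuronal upkeep: Uchl1 encodes an abundant neuronal ubiquitin hydrolase, Park7 the redox-sensitive protein DJ-1, Pink1 a kinase that marks damaged mitochondria for removal, Vps35 the core of the retromer that returns membrane cargo from endosomes, and Lrrk2 a large kinase that phosphorylates Rab GTPases. The locus coeruleus is known for losing neurons in Parkinson's disease and for early tau deposits in Alzheimer's disease.

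Libraries held 41843489 to 65664551 counts assigned to genes. The 12 noradrenergic markers listed (Dbh, Th, Slc6a2 and others) were all detected in every group of libraries, and the IP held more of all 12 than the homogenate by the edgeR test. Their summed level was 1070.1 to 7168 CPM in tau IP, where CPM stands for reads per 1000000 assigned to genes, 564 to 642 CPM in EYFP IP and 409 to 481 CPM in pre-IP, so the EYFP IP libraries lay much closer to homogenate than the tau IP libraries did. Oligodendrocyte genes, a check on other cells in the IP, summed to 3720 to 10482 CPM in tau IP, 8961 to 13278 CPM in EYFP IP and 10056 to 13459 CPM in pre-IP. Some animals stand apart from the rest or from their labels. The IP RNA of EYFP animal I had an RNA integrity number of 4.2, against 7.7 to 9 in the other libraries. EYFP animal K had 408 and 398 counts of the human tau construct, against 2 to 18 in animals H and I and 3527 to 47177 in the tau libraries. Animal M of the tau group, labelled female, had 674 and 1153 counts over 4 Y-linked genes in its pre-IP and IP libraries, against 0 to 4 in the libraries of the other females. Counts of the X-linked RNA Xist were 0 in its pre-IP library, as in the males, and 21 in its IP library. The libraries of the other females held 16 to 120 Xist counts, so the 2 libraries of animal M differed in this respect. In tau animal B the IP RNA was the least concentrated (0.1 ng per microlitre), and 6 lymphocyte genes summed to 969 CPM in its IP library, against 148 to 364 CPM in the other IP libraries. Yet the mean log2 ratio of IP over pre-IP CPM of these 6 genes was lowest in animal B, at -1.68, against -0.12 to 0.92 in the other animals. The high sum was thus not shared by all of these genes. Values without these animals are given below.

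Sncb and Sncg are close relatives, which matters for whether their reads can be told apart. Sncb lies at chr13:54758860-54766595 on the minus strand of GRCm38 and Sncg at chr14:34370274-34374789, also on the minus strand. Their coding sequences hold 133 and 123 codons before the stop, and 256 of 367 aligned bases were identical (69.8%). The coding starts, which hold part of the conserved repeat region, are shown to compare the genes base by base: 96 of the first 120 bases were identical (80%), given in capitals below, with the differing bases in lower case. Both are GENCODE M21 transcripts read 5′ to 3′ from the start codon.
Sncb: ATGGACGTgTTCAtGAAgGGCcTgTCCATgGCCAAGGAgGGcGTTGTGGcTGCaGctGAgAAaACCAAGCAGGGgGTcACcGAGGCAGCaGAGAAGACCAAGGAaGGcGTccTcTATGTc
Sncg: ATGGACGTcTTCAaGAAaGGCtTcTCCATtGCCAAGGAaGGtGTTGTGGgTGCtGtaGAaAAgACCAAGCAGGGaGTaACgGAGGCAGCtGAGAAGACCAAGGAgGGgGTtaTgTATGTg
The longest run of identical bases in the whole coding alignment was 16. No stretch of 50 bases in the transcripts of Sncb, Sncg or Lrrk2 occurred in a transcript of any other gene.

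Of the remaining members, Uchl1 (chr5:66676091-66687234, plus strand) overlaps the antisense transcript Uchl1os, which shared 12.6% of its 50-base stretches. Uchl1os was counted at only 0.0828 to 0.493 CPM, but whether counting used strand is not given in the sources used here, so reads of the shared stretch cannot be told apart. Vps35 (chr8:85260392-85299802, minus strand) overlaps Orc6 on the opposite strand, which was counted at 21.0 to 47.1 CPM, and 2.17% of its 50-base stretches occurred in other genes. Pink1 (chr4:138313409-138326307, minus strand) contains the small RNA genes Mir7019 and Gm27646, which account for its 3.03% of shared stretches. Park7 (chr4:150897133-150914437, minus strand) shared 0.468%, and Lrrk2 (chr15:91673175-91816120, plus strand) shared none. No stretch was shared between members.

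Across the 14 libraries the members spanned a wide range of expression. Per kilobase of exon, mean levels placed Uchl1 at percentile 99.4 of 18215 protein-coding genes, Sncg at 99.3, Sncb at 98.7, Pink1 at 98.4, Park7 at 97.8, Vps35 at 75.9 and Lrrk2 at 29.6. In EYFP pre-IP, Uchl1 was highest at 472 ± 63.4 CPM per kilobase (SD, n = 3), above every other member in all libraries of the group. Pink1 (288 ± 34.3), Sncb (276 ± 19.6) and Sncg (230 ± 49.1) followed in CPM per kilobase, and each overlapped its neighbour in this order. Park7 came next at 151 ± 20.4 CPM per kilobase, followed by Vps35 at 7.52 ± 1.18 and Lrrk2 at 0.414 ± 0.0367, without overlap. The tau pre-IP order differed only in that Sncb and Pink1, which overlapped, changed places. In EYFP IP, Uchl1 was again highest at 599 ± 48.3 CPM per kilobase (SD, n = 3). Sncg (295 ± 76.7), Sncb (291 ± 32.7) and Pink1 (274 ± 10.3) followed there, with overlap between neighbours. In tau IP the mean of Sncg came first, at 1181 ± 727 CPM per kilobase (SD, n = 4), beside Uchl1 at 1075 ± 424. The libraries of these 2 genes overlapped. Sncb followed at 337 ± 38.5 CPM per kilobase, above Park7 and Pink1, which overlapped each other.

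**Figure D1:**
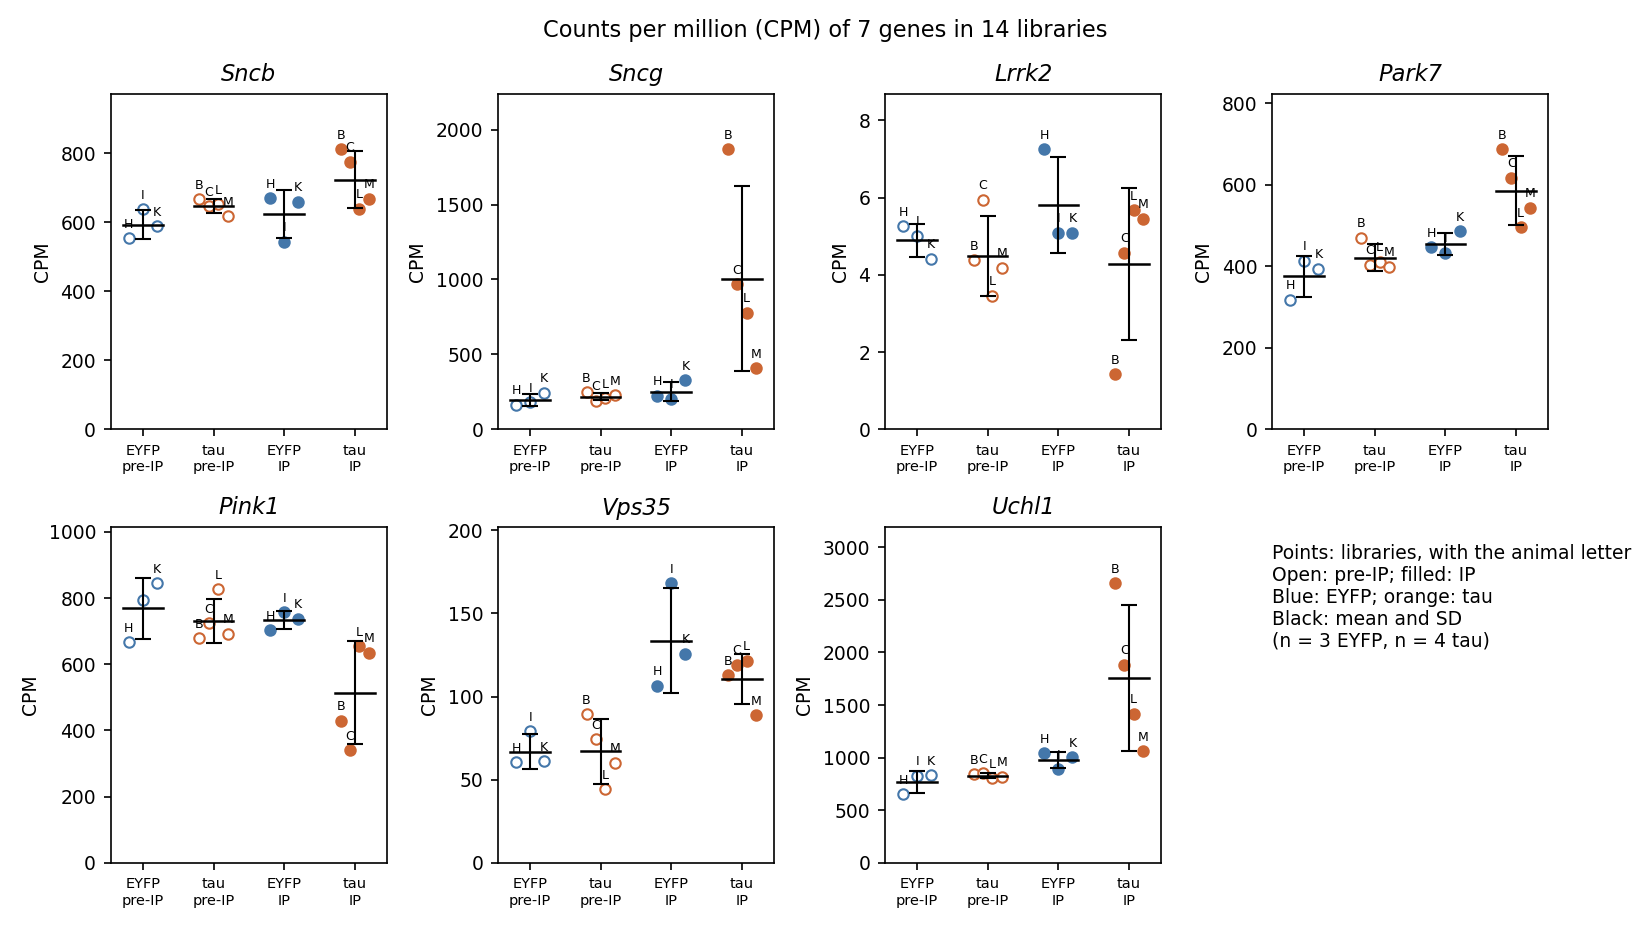
Level of each member in CPM (vertical axes start at 0) in the 14 libraries, grouped by treatment and fraction; points are libraries with their animal letter, and black lines are the mean and SD. Sncg and Uchl1 in tau IP lie above all other groups, with animal B highest at 1868 and 2660 CPM. Sncb, Park7, Pink1 and Vps35 span narrower ranges, and Lrrk2, the lowest member, runs from 1.42 to 7.25 CPM.

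Sncg showed the widest spread of the synucleins. It was measured at 163, 182 and 243 CPM in the EYFP pre-IP libraries of animals H, I and K, and at 246, 191, 207 and 227 CPM in the tau pre-IP libraries of animals B, C, L and M. In EYFP IP the same animals gave 225, 203 and 326 CPM, and in tau IP 1868, 967, 779 and 409 CPM. All 4 tau IP libraries therefore lay above the other 10, animal B by the most and animal M by the least. Sncb, in contrast, was measured at 553, 637 and 588 CPM in EYFP pre-IP and at 667, 646, 652 and 617 CPM in tau pre-IP. Its IP values were 669, 543 and 658 CPM in EYFP animals and 810, 775, 639 and 668 CPM in tau animals. Tau IP animals B and C were the highest for Sncb, and animals L and M overlapped the EYFP IP libraries.

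Uchl1 followed the pattern of Sncg at a higher level. Its pre-IP values were 651, 827 and 834 CPM in EYFP animals H, I and K and 843, 850, 807 and 819 CPM in tau animals B, C, L and M. In IP it reached 1040, 890 and 1004 CPM in EYFP animals and 2660, 1883, 1418 and 1058 CPM in tau animals. The tau IP libraries lay above the EYFP IP libraries, although animal M, at 1058 CPM, was close to EYFP animal H, at 1040 CPM. Park7 was measured at 318, 414 and 394 CPM in EYFP pre-IP and at 470, 404, 411 and 398 CPM in tau pre-IP. In IP, Park7 stood at 447, 433 and 485 CPM in EYFP animals and at 686, 617, 496 and 543 CPM in tau animals. Again the tau IP libraries did not overlap the EYFP IP libraries, here by a narrow gap between animals L and K.

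Pink1 was measured at 668, 794 and 846 CPM in EYFP pre-IP and at 678, 724, 826 and 692 CPM in tau pre-IP. Its IP values were 703, 758 and 737 CPM in EYFP animals and 429, 340, 654 and 635 CPM in tau animals. For this kinase gene the tau IP libraries were the low ones, most of all animals B and C. Vps35 was measured at 60.6, 79.1 and 61.1 CPM in EYFP pre-IP and at 89.4, 74.2, 44.2 and 60.3 CPM in tau pre-IP. In IP, Vps35 stood at 106, 168 and 126 CPM in EYFP animals and at 113, 119, 121 and 88.9 CPM in tau animals. Both treatments were higher for Vps35 in IP than in pre-IP, with 1 pair of values crossing (animal B in pre-IP at 89.4 and animal M in IP at 88.9 CPM). Lrrk2 was low throughout, at 3.46 to 5.94 CPM in pre-IP. Its IP values were 7.25, 5.09 and 5.09 CPM in EYFP animals and 1.42, 4.57, 5.68 and 5.45 CPM in tau animals. The lowest Lrrk2 value, in tau IP animal B, rested on 80 counts, above the floor of 3 counts.

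The first comparison asked which members were more abundant in the ribosome-associated RNA than in the homogenate of the same animals. Sncg, Vps35, Uchl1 and Park7 rose in IP, and no member fell. These were 4 of 7 members, where the same test called 29.9% of 19472 genes tested, and 15.6% as higher. Sncg went from 208 ± 31.5 CPM in pre-IP to 682 ± 597 CPM in IP (SD, n = 7 each), up by 1.50 on the log2 scale (SE 0.38; by edgeR, adjusted p = 0.00784). Vps35 went from 66.98 ± 14.97 to 120.4 ± 24.39 CPM, up by 0.89 (SE 0.16; by edgeR, adjusted p = 0.00062). Uchl1 went from 804 ± 69.1 to 1422 ± 643 CPM, up by 0.83 (SE 0.21; by edgeR, adjusted p = 0.0074). It was the only member whose IP and pre-IP libraries did not overlap, as was so for 9.15% of genes tested. Park7 went from 401 ± 44.7 to 530 ± 92.8 CPM, up by 0.44 (SE 0.12; by edgeR, adjusted p = 0.0117). Pink1, at -0.28 (SE 0.13, edgeR adjusted p = 0.128), did not pass. Sncb at 0.18 (SE 0.10, edgeR adjusted p = 0.222) and Lrrk2 at 0.09 (SE 0.23, edgeR adjusted p = 0.799) also did not pass. The call for Park7 was lost without animal C (edgeR adjusted p = 0.0613), and the same 4 members were called without animal B, H, I, K, L or M. Without animal B the value of Sncg was 1.08 and that of Uchl1 0.59.

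**Figure D2:**
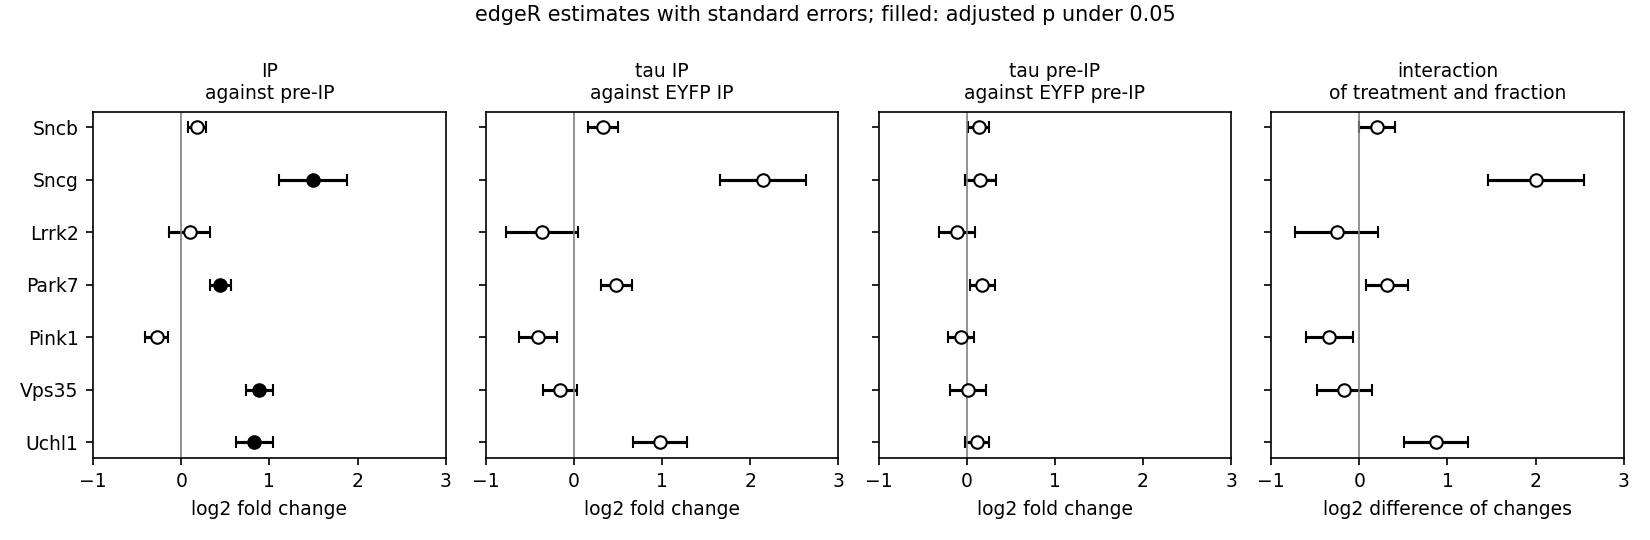
edgeR estimates (log2 scale, horizontal axes) with standard errors for the 7 members in the 4 comparisons; filled points had an adjusted p under 0.05. Filled points appear only in the first panel, at 1.50 for Sncg, 0.89 for Vps35, 0.83 for Uchl1 and 0.44 for Park7, and the open point farthest to the right in tau IP against EYFP IP is Sncg at 2.14.

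The calls were also made within each treatment. In the EYFP animals alone, only Vps35 passed, with a log2 difference of 0.99 (SE 0.20, edgeR adjusted p = 0.0179), where 6.38% of genes were called. Sncg and Uchl1 stood there at 0.34 (SE 0.23) and 0.33 (SE 0.17), with edgeR adjusted p = 0.42 and 0.284. In the tau animals alone the same 4 members as in the joint fit passed, where 20.7% of genes were called. Sncg then stood at 2.31 (SE 0.41, edgeR adjusted p = 0.0070) and Uchl1 at 1.17 (SE 0.27, edgeR adjusted p = 0.0147). Vps35 stood at 0.79 (SE 0.21, edgeR adjusted p = 0.0245). These splits do not show that a gene's IP change differed between treatments, which the interaction below tests.

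The second comparison, tau IP against EYFP IP, is the contrast the study's design names. No member passed, as none of 19472 genes did (0% called). Without adjustment, 12% of genes had an edgeR p under 0.05, and Sncg, Uchl1 and Park7 were among them. Sncg had the largest difference of the members, from 251 ± 65.3 CPM (SD, n = 3) in EYFP IP to 1006 ± 620 CPM (SD, n = 4) in tau IP, a log2 difference of 2.14 (SE 0.49, edgeR adjusted p = 0.318). Uchl1 had a log2 difference of 0.98 (SE 0.31, edgeR adjusted p = 0.318), from 978 ± 78.8 to 1755 ± 692 CPM. Park7 had a log2 difference of 0.48 (SE 0.18, edgeR adjusted p = 0.346). Pink1 lay in the opposite direction at -0.41 (SE 0.22, edgeR adjusted p = 0.488), from 733 ± 27.6 CPM in EYFP IP to 515 ± 155 CPM in tau IP. In these 4 of 7 members the tau and EYFP libraries did not overlap, against 15.6% of genes tested. Sncb stood at 0.33 (SE 0.17, edgeR adjusted p = 0.477), Vps35 at -0.16 (SE 0.19, edgeR adjusted p = 0.771) and Lrrk2 at -0.36 (SE 0.41, edgeR adjusted p = 0.754).

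Whether Sncg passed in this comparison turned on the setting. DESeq2's Wald test called Sncg (adjusted p = 0.0227) and Uchl1 (adjusted p = 0.0344) among 411 genes, 2.11% of those tested. With no filter on low counts edgeR called Sncg (adjusted p = 0.0125) with 0.355% of genes, and a single fit of all 14 libraries called it (edgeR adjusted p = 0.0337) with 0.986%. Leaving out animal M gave Sncg a log2 difference of 2.41 (edgeR adjusted p = 0.0329), with 0.67% of genes called, whereas leaving out animal K gave 2.37 (edgeR adjusted p = 0.571) and leaving out animal I gave 1.99 (edgeR adjusted p = 0.621). The lowest value came without animal B, at 1.58 (edgeR adjusted p = 0.219). Without that animal Uchl1 stood at 0.64 (edgeR adjusted p = 0.333) in place of 0.98, and Lrrk2 at -0.08 in place of -0.36. Without animal C, Pink1 stood at -0.24 in place of -0.41, and without animal H, Lrrk2 at -0.20.

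In the homogenate, no member differed past the threshold between tau and EYFP animals. None of 19197 genes passed in tau pre-IP against EYFP pre-IP (0% called by edgeR or DESeq2), and 2.84% had an unadjusted edgeR p under 0.05. Members ranged from a log2 fold change of -0.11 (SE 0.20) for Lrrk2 to 0.18 (SE 0.14) for Park7. Sncg stood at 0.16 (SE 0.17) and Uchl1 at 0.12 (SE 0.14). No member's groups were free of overlap, where 3.12% of genes were. In bulk RNA of this kind, a change in the number of cells and a change in RNA per cell cannot be told apart.

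The interaction of treatment and fraction tests directly whether the step from pre-IP to IP differed between tau and EYFP animals. No member passed, and none of 20495 genes did (0% called by edgeR, 5.97% with an unadjusted p under 0.05), whereas DESeq2 called 52 genes (0.254%), with no member among them. Sncg had a log2 difference of 2.00 (SE 0.55, edgeR adjusted p = 0.57) and Uchl1 of 0.87 (SE 0.37, edgeR adjusted p = 0.82). The other 5 members ranged from -0.34 (SE 0.26) for Pink1 to 0.31 (SE 0.24) for Park7. Without animal B the difference was 1.45 for Sncg and 0.49 for Uchl1. Without a filter on low counts edgeR called Sncg (adjusted p = 0.0147) and 0.192% of genes.

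Ratios within each animal show where these averages come from. The log2 ratio of IP over pre-IP CPM for Sncg was 3.19, 2.41, 1.95 and 0.83 in tau animals B, C, L and M, and 0.52, 0.12 and 0.37 in EYFP animals H, I and K. All 7 animals were above 0, and the tau animals lay above the EYFP animals without overlap, as for 10.6% of genes tested. The difference in means, 1.76, had a two-sided exact permutation p of 0.0571 over 35 splits, or 0.267 adjusted over the 7 members tested. The smallest p this design allows is 0.0286. For Uchl1 the ratios were 1.92, 1.23, 0.85 and 0.34 in tau animals and 0.74, 0.07 and 0.21 in EYFP animals, with EYFP animal H above tau animal M. The Uchl1 difference of 0.75 had an exact permutation p of 0.114. Library numbers fall into 2 ranges, up to 11 (animals B, C, H and I) and from 17 (animals K, L and M). For Sncg the tau minus EYFP difference was 2.48 in the first range and 1.02 in the second, and for Uchl1 it was 1.17 and 0.38, so both kept their sign within each range, as did Park7 (0.46 and 0.12). The other members changed sign between the ranges: Sncb had differences of 0.41 and -0.06, Pink1 of -0.72 and 0.03, Lrrk2 of -1.07 and 0.40, and Vps35 of -0.28 and 0.03. The first range holds 2 animals of each treatment and the second 2 tau animals and 1 EYFP animal, too few for a test.

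Park7 ratios were 0.81, 0.69, 0.31 and 0.42 in tau animals and 0.55, 0.03 and 0.25 in EYFP animals. Vps35 ratios were 0.60, 0.76, 1.50 and 0.53 in tau animals and 0.87, 1.05 and 0.99 in EYFP animals. Sncg, Uchl1, Park7 and Vps35 were thus above 0 in all 7 animals, as were 12.4% of genes tested. The Vps35 ratio had a tau mean of 0.85 ± 0.44 (SD, n = 4) and an EYFP mean of 0.97 ± 0.09 (SD, n = 3), so this gene lacked the higher tau mean of Sncg and Uchl1. Pink1 ratios were -0.40, -1.01, -0.30 and -0.15 in tau animals and 0.14, -0.10 and -0.25 in EYFP animals. Lrrk2 ratios scattered on both sides of 0, from -1.34 in animal B to 0.75 in animal L. Sncb stayed between -0.27 and 0.54. Set against its relative, Sncg had the higher ratio in 7 of 7 animals, with a tau mean of 1.85 ± 0.80 (SD, n = 4) for the gap and an EYFP mean of 0.28 ± 0.10 (SD, n = 3).

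**Figure D3:**
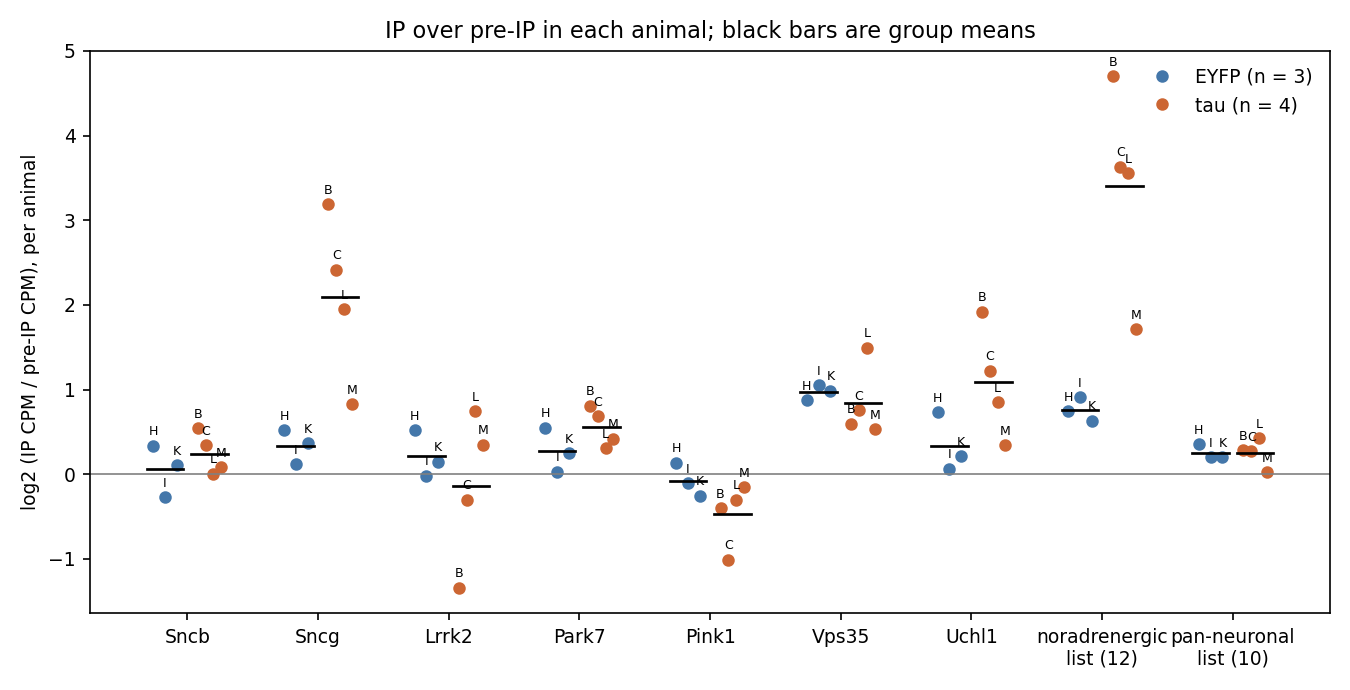
log2 ratio of IP over pre-IP CPM in each animal (vertical axis) for the 7 members and the means of the noradrenergic list (12 genes) and the pan-neuronal list (10 genes); black bars are group means. Sncg ratios of tau animals run from 0.83 to 3.19 and lie above those of EYFP animals, and the noradrenergic list does the same, while the pan-neuronal list has a mean of 0.25 in both groups.

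The noradrenergic markers moved with Sncg and Uchl1. The mean log2 ratio of the 12 noradrenergic genes was 4.70, 3.63, 3.55 and 1.72 in tau animals B, C, L and M, and 0.74, 0.91 and 0.63 in EYFP animals H, I and K. Among the tau animals this order, B then C, L and M, was also the order of Sncg and of Uchl1. Among the EYFP animals it was not, since animal I was highest for the noradrenergic list and lowest for both genes. Park7 and Sncb were also highest in animals B and C, but for these genes animal M lay above animal L. In tau IP against EYFP IP none of the 12 noradrenergic genes passed (edgeR), and their log2 fold changes ran from 1.41 to 4.36 with a median of 2.69, against -0.08 over all genes tested. The medians of 8 astrocyte, 8 oligodendrocyte and 8 microglia genes in that comparison were -0.51, -0.44 and -0.42, and that of 10 pan-neuronal genes was -0.05. Markers of other neuron types were also lower there. The medians were -0.64 for 4 serotonergic, -0.48 for 6 glutamatergic and GABA/glycinergic and -0.42 for 5 cholinergic genes. RNA concentrations of the IP were 0.1 to 0.8 ng per microlitre in tau animals and 0.7 to 2.8 in EYFP animals. How far the recovery of noradrenergic RNA enters the differences of Sncg, Uchl1, Park7 and Pink1 was not tested.

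**Figure D4:**
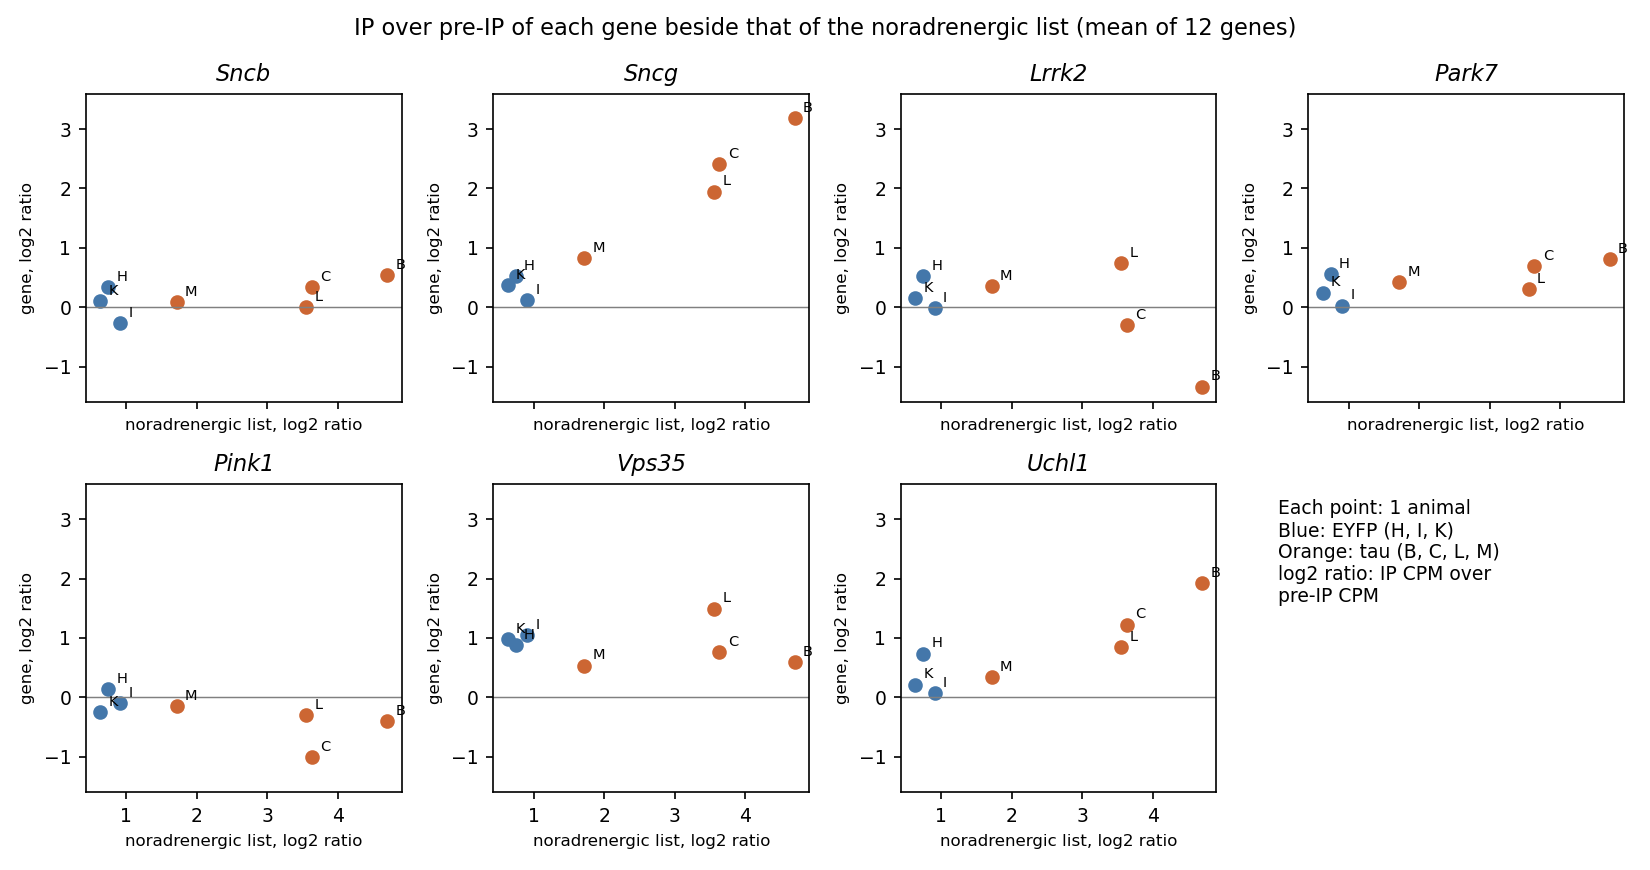
log2 ratio of IP over pre-IP of each member (vertical axes) against the mean log2 ratio of the 12 noradrenergic genes (horizontal axes), with 1 point per animal. Sncg, Uchl1, Park7 and Sncb are highest in animal B, where the noradrenergic mean is 4.70. Lrrk2 is lowest there at -1.34, and Vps35 shows no such order.

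Genes that act with the members were taken as 6 lists, with 111 genes tested in all. In IP against pre-IP, 30 were higher and 18 lower by the edgeR test, which called 29.9% of all genes. In tau IP against EYFP IP and in the interaction none passed by edgeR, with 23 and 6 at an unadjusted p under 0.05, where 12% and 5.97% of all genes were. In tau pre-IP against EYFP pre-IP none passed by edgeR either, and 3 had an unadjusted p under 0.05, against 2.84% of all genes. Handling of reads with several matches is not given in the sources used here, so partner genes with near-identical copies are uncertain. Fold changes below are log2 values of IP against pre-IP.

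Around Uchl1, 16 ubiquitin genes had 7 higher and 3 lower in IP, with a median of 0.23 against -0.00356 over all genes tested. Uba6, a ubiquitin-activating enzyme, rose by 1.31 (SE 0.16), from 5.14 ± 0.88 to 12.3 ± 2.54 CPM (SD, n = 7). Uchl5, a hydrolase of the same family as Uchl1 that works at the proteasome, rose by 0.81 (SE 0.12). Rps27a, which encodes ubiquitin fused to a ribosomal protein, rose by 0.71 (SE 0.11). The family member Bap1, a nuclear hydrolase, fell by 0.78 (SE 0.11), from 417 ± 48.1 to 237 ± 49.6 CPM. The activating enzyme Uba1 and the hydrolase Usp5 fell by 0.38 (SE 0.12) and 0.30 (SE 0.11). Hydrolases and activating enzymes thus had members on both sides. By edgeR the call for Uba1 was lost without animal K, L or M (adjusted p = 0.0638, 0.0656 and 0.0909). That for Usp5 was lost without animal C, I, K, L or M (edgeR adjusted p from 0.0741 to 0.16) and with the animal as a block (0.0641), and DESeq2's size factors in edgeR gave 0.0516. It was also lost with limma voom (adjusted p = 0.0698) and with no filter on low counts (edgeR adjusted p = 0.0862). Usp5 was called within neither treatment alone (edgeR adjusted p = 0.0634 in tau and 0.571 in EYFP animals). The calls for Rps27a and Uba1 were lost in EYFP animals alone, where they stood at 0.49 (edgeR adjusted p = 0.0992) and -0.22 (0.53).

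Around Park7, 16 glyoxalase and thiol redox genes had 6 higher and 1 lower, with a median of 0.26. Txn1 (thioredoxin) rose by 0.65 (SE 0.21), Prdx1 (a peroxiredoxin) by 0.63 (SE 0.15) and Sod1 (the cytosolic superoxide dismutase) by 0.54 (SE 0.11). Keap1, which holds the antioxidant regulator Nfe2l2 in check, fell by 0.31 (SE 0.09). By edgeR the call for Txn1 was lost without animal C (adjusted p = 0.1) or L (0.0801), and its value was 0.42 without animal B. In EYFP animals alone Txn1 stood at only 0.098 (edgeR adjusted p = 0.784), Prdx1 at 0.43 (0.245) and Sod1 at 0.37 (0.2). The call for Keap1 was lost without animal L (edgeR adjusted p = 0.0559) or M (0.0704). It was also lost within either treatment alone (edgeR adjusted p = 0.0764 in tau and 0.327 in EYFP animals).

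Around Pink1, 23 genes of mitochondrial quality control had 4 higher and 2 lower, with a median of 0.04. The autophagy receptor Tax1bp1 rose by 0.96 (SE 0.16), the deubiquitinase Usp15 by 0.95 (SE 0.14) and Tomm7, a small subunit of the outer-membrane import channel, by 0.59 (SE 0.14). Mfn2, the outer-membrane fusion GTPase, fell by 0.73 (SE 0.12), from 474 ± 69.3 to 280 ± 48.1 CPM (SD, n = 7). Usp30, a deubiquitinase of the mitochondrial outer membrane, fell by 0.51 (SE 0.11). The calls for Tomm7 and Usp30 were lost in EYFP animals alone, where they stood at 0.33 (edgeR adjusted p = 0.263) and -0.48 (0.108).

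Around Vps35, 18 retromer and sorting nexin genes had 4 higher and 5 lower, with a median of -0.08. Washc4, a subunit of the WASH complex that the retromer recruits, rose by 1.32 (SE 0.18), from 7.27 ± 2.08 to 17.4 ± 2.77 CPM (SD, n = 7). Washc5, another subunit of that complex, fell by 0.57 (SE 0.11). The sorting nexins Snx2 and Snx6 rose by 0.61 (SE 0.18) and 0.59 (SE 0.15). The retromer subunit Vps26b fell by 0.50 (SE 0.10), and the cargo receptor Igf2r by 0.51 (SE 0.15). Partners of Vps35 thus moved in both directions. By edgeR the call for Snx2 was lost without animal C (adjusted p = 0.0542) or L (0.0736), and that for Igf2r without animal C (0.05004) or K (0.0586). Igf2r was called within neither treatment alone (edgeR adjusted p = 0.0836 in tau and 0.21 in EYFP animals). In EYFP animals alone Snx2 stood at 0.22 (edgeR adjusted p = 0.466), Snx6 at 0.37 (0.221), Washc5 at -0.53 (0.0774) and Vps26b at -0.32 (0.269).

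Around Lrrk2, 22 Rab substrates and partners had 3 higher and 4 lower, with a median of -0.01. The vesicle GTPases Rab3b and Rab3c rose by 1.15 (SE 0.32) and 0.96 (SE 0.22), and the motor adaptor Spag9 by 0.38 (SE 0.12). Mapk8ip3, a related motor adaptor, fell by 1.13 (SE 0.15), from 672 ± 113 to 307 ± 87.8 CPM (SD, n = 7). The endosomal Rab5b fell by 0.81 (SE 0.10) and the kinase Gak by 0.74 (SE 0.11). By edgeR the call for Rab3b was lost without animal C (adjusted p = 0.06) or L (0.0535), and that for Spag9 on leaving out any animal except B (adjusted p from 0.0549 to 0.0894) and with limma voom (0.055). In EYFP animals alone Rab3b stood at only 0.19 (edgeR adjusted p = 0.598) and Rab3c at 0.94 (0.0782). Rab3b had a log2 difference of 1.85 in tau IP against EYFP IP (edgeR adjusted p = 0.318). Spag9 was called within neither treatment alone (edgeR adjusted p = 0.135 in tau and 0.253 in EYFP animals).

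Among 16 other parkinsonism genes tested, 6 were higher and 3 lower, with a median of 0.05. Vps13c, a lipid transfer protein, rose by 1.01 (SE 0.19), the mitochondrial protein gene Chchd2 by 0.58 (SE 0.12) and the GTPase gene Rab39b by 0.55 (SE 0.13). Atp13a2, a lysosomal transport ATPase, fell by 0.66 (SE 0.12), from 378 ± 42.1 to 233 ± 44.1 CPM (SD, n = 7). The receptor gene Lrp10 and the phospholipase gene Pla2g6 fell by 0.63 (SE 0.14) and 0.40 (SE 0.12). By edgeR the call for Pla2g6 was lost without animal K (adjusted p = 0.0645) or M (0.0635), and within either treatment alone (0.189 in tau and 0.087 in EYFP animals). The calls for the other genes named here were also lost in EYFP animals alone. Chchd2 stood there at 0.32 (edgeR adjusted p = 0.237), Rab39b at 0.43 (0.145) and Lrp10 at -0.42 (0.199). Vps13c stood at 0.91 (edgeR adjusted p = 0.0669) and Atp13a2 at -0.64 (0.0523).

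**Figure D5:**
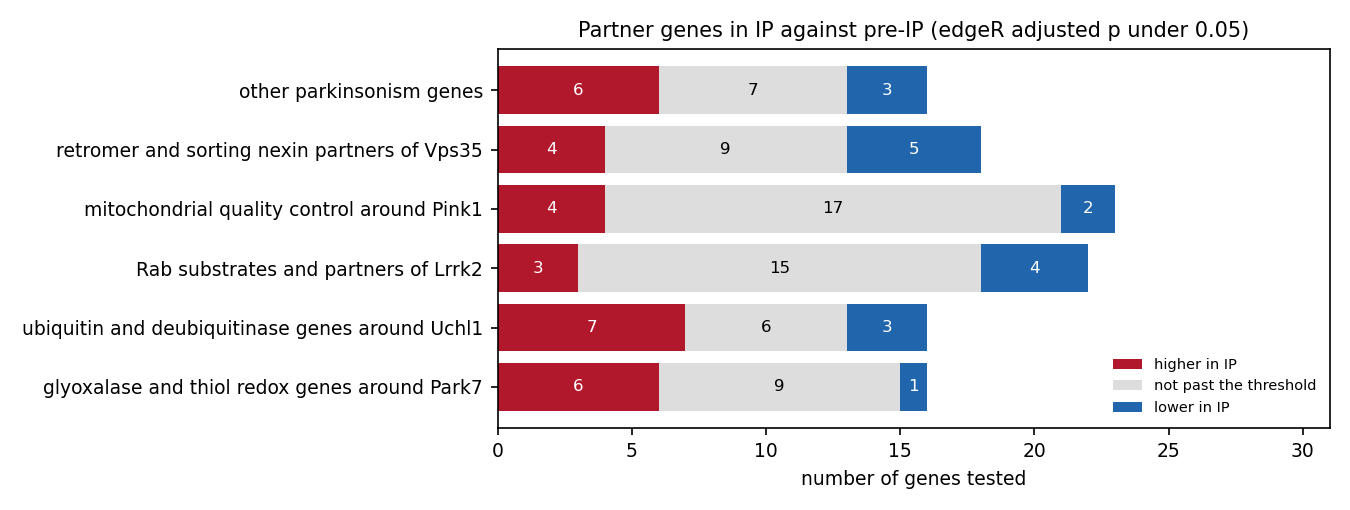
Number of partner genes (horizontal axis) in each of 6 lists that were higher in IP, not past the threshold or lower in IP. The ubiquitin list has the most genes higher in IP (7 of 16), and the retromer list is the one with the most lower (5 of 18).

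The genes whose log2 CPM tracked each member most closely over the 14 libraries were named as a description; libraries of an animal are not independent, and the IP libraries weigh on every such value. For Sncg they were S100a10 (Pearson r = 0.996), Tppp3 (0.993) and Cmbl (0.992), and for Uchl1 Nol3 (0.989), Rtn1 (0.989) and again Tppp3 (0.988). Park7 was closest to Stmn3 (0.991), Atp5po (0.987) and Ndufa11 (0.985), of which the last 2 encode mitochondrial respiratory-chain or ATP synthase proteins. Vps35 was closest to Scfd1 (0.985), Cfap97 (0.982) and Kpna3 (0.980). For Sncb, Ddt (0.963) and Hax1 (0.962) are given. For Pink1 the genes were Noc2l (0.950), Kifbp (0.946) and Esrra (0.918), and for Lrrk2 Golga1 (0.932), Bltp3b (0.931) and Caln1 (0.922). No 2 members other than Sncg and Uchl1 had a named gene in common.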

How the data were processed

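The 14 libraries were made, per the labels' protocols, with the SMART-Seq v4 and Nextera XT kits, from RNA labelled as polyA. The authors deposited raw read counts, 1 whole number for each gene and library. The submitters' processing notes name FastQC, Trim Galore, STAR, featureCounts and GRCm38/mm10, without versions. Per the file headers, the deposited sample sheet gives RNA integrity numbers (a quality score), RNA concentrations, raw reads and tau construct counts, and the deposited gene table gives exonic lengths. Columns of counts were read by position because of 2 stray header cells, and construct counts equalled the sheet in 14 libraries.

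Tests used edgeR 4.0.16 (R 4.3.3): quasi-likelihood F test, filterByExpr, TMM scaling, Benjamini-Hochberg adjustment over all genes kept, threshold 0.05. The SE is the size of the log2 fold change over the square root of F. IP was compared with pre-IP over 14 libraries with treatment as a term. Tau against EYFP used the libraries of each fraction alone. CPM are counts per 1000000 assigned counts, and 3 counts amount to 0.0457 to 0.0717 CPM (counting error only). Per-animal ratios used TMM-scaled CPM with a prior count of 2. The fits were tested on simulated counts.

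Libraries were grouped by their labels, and each animal letter is taken as 1 animal. Fractions of an animal deviated from their group means together (correlations 0.30 to 0.60 in 7 animals). This does not test the pairing by letter, because fractions of different animals were not set against each other. Both fractions of an animal also share a library-number range. Between replicates, chi-square over its degrees of freedom was at least 24.6, so no library was a repeat of another in its group. Libraries of different groups were not compared in this way.

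Symbols came from the deposited gene table, or from GENCODE M21 for 3669 genes. Shared stretches and coding sequences were read from GENCODE M21 transcripts. The members, the pathway and marker lists and the tests were chosen with earlier results of these data known. The named genes are all members, of each pathway list up to 3 called genes per direction by size of change, and the 3 genes most correlated with each member among genes with a mean of at least 10 CPM. Some items under this rule are not reported here. Alternatives were DESeq2 1.42.0 (size factors or Wald test), limma 3.58.1 voom with sample weights, the library-number range as a term, unfiltered genes, genes averaging 50 counts or more, all libraries in a single fit, each treatment alone, a block for the animal, a prior count of 0.5, unscaled totals and leaving out each animal.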

Additional observations from a re-analysis of the deposited data

Results flagged for a closer look

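Among the 21 groups of 4 samples examined (7 members in tau pre-IP and tau IP, and the tau animals' ratios), 1 value stood far from the other 3. Park7 was at 470.0 CPM in tau pre-IP of animal B, against 398 to 411 CPM in animals C, L and M, and the gap was 0.831 of the group's range, above Dixon's 95% critical value for 4 samples. Chance flags about 1 in 20 such groups.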

How the results depend on the processing

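In IP against pre-IP, 4 members were called, and in the EYFP animals alone 1 (Vps35). Of the pathway genes, 48 were called, and 11 in the EYFP animals alone; leaving out an animal gave 33 to 50. With the animal as a replicate block, 4 members (the same ones) and 49 pathway genes were called in IP against pre-IP, and 0 members in the interaction, so the block changed no call of a member. In tau IP against EYFP IP, 0 members were called. DESeq2's Wald test called 2, no filter on low counts 1, a single fit of all libraries 1, and leaving out an animal 0 to 1. In the interaction, no filter on low counts called 1, and leaving out an animal 0. Directions turned for 4 members, none of them past a threshold there. Lrrk2 in IP against pre-IP was -0.035 in tau animals alone and -0.026 to 0.24 on leaving out an animal, and its per-animal difference was -0.65 to 0.047. On leaving out an animal, Vps35 ran from -0.33 to 0.022 in tau IP against EYFP IP. In tau pre-IP against EYFP pre-IP, Vps35 ran from -0.15 to 0.17, Pink1 from -0.19 to 0.049 and Uchl1 from -0.027 to 0.22. The causes of these shifts were not tested. Groups of 3 and 4 animals, and 80 to 476 counts for Lrrk2, limit the precision.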
